A study of Mus musculus with 8 samples.

Results

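The genes described here are those of the mouse major histocompatibility complex, whose symbols start with H2, and 4 genes that class I molecules need to load peptide: B2m, Tap1, Tap2 and Tapbp. Every probe set annotated with such a symbol was taken, which gave 56 of the 12488 probe sets on the Affymetrix MG_U74Av2 array. They name 41 genes. Of the 56, 49 carry an H2 symbol and 7 belong to the loading genes. By role, 34 measure class I heavy chains, 13 class II genes, 7 the loading genes, and 2 H2-Ke6, a steroid dehydrogenase that only shares the name. Many of the H2 genes, mostly of class I, are near-copies of one another. Of the 56 probe sets, 11 list several genes, and 18 carry the array maker's f mark for probes shared across a sequence family. The s mark stands on 5 more and a g, i or r mark on 7, and 26 have a plain identifier. A signal from a probe set that is marked or lists several genes may belong to more than the gene named. Attention came to these genes because H2-Q4 was lower on the arrays labelled Terc knockout, so that contrast is described without a test.

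RNA from mouse testis was measured on 8 arrays, 2 for each of 4 genotypes. These were wild type, written Ku86(+/+);Terc(+/+) in the labels, Terc knockout, Ku86(+/+);G3-Terc(-/-), Ku86 knockout, Ku86(-/-);Terc(+/+), and double knockout, Ku86(-/-);G3-Terc(-/-). Terc is the RNA template of telomerase, and G3 marks the generation without it; Ku86, the product of Xrcc5, binds broken DNA ends. Strain and age are not given in the labels, the scanner records call the samples germ cells rather than testis, and double knockout replicate 1 was a pool under 3 identifiers while each other array had 1. Wild type replicate 1 was a second hybridisation after a first with high background.

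Class I molecules pair a heavy chain with beta-2 microglobulin, the product of B2m, and show peptides from inside the cell to CD8 T cells. Peptides enter the endoplasmic reticulum through the transporter Tap1-Tap2, and tapasin, from Tapbp, holds empty class I molecules beside it. Class II molecules show peptides taken up from outside and are typical of macrophages, dendritic cells and B cells; H2-DM loads them and H2-O restrains H2-DM. In the testis, germ cells are known for low classical class I levels, and resident macrophages carry class II.

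Class I genes are known to answer to NF-kappa B and interferon through a short stretch before the gene, and these stretches are shown because they let the family members be compared base by base. RefSeq promoter windows of build GRCm38.p6, from 250 bases before to 50 bases after the start, were at hand for 27 of the 41 genes. A pair of motifs was searched on both strands: the kappa B element GGGATTCCC and the interferon response element AANNGAAAC. They are in capitals below, each stretch being 44 bases read 5′ to 3′ on the gene's strand, where the interferon element lies on the opposite strand.
H2-K1: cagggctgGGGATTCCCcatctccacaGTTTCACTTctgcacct
H2-D1: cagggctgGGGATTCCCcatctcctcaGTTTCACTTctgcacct
H2-Q7: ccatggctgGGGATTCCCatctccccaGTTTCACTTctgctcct
H2-Q4: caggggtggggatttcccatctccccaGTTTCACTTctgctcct
They lie at chr17:34000422-34000465 on the minus strand for H2-K1, and on the plus strand at chr17:35262916-35262959 for H2-D1, chr17:35439014-35439057 for H2-Q7 and chr17:35379436-35379479 for H2-Q4. The motifs do not overlap. The kappa B letters stood in 3 of the 27 windows, H2-K1, H2-D1 and H2-Q7, against 0.414% of all 27025 genes with a window. In these 3 the interferon element followed after 10, 10 and 9 bases. The interferon letters stood in 13 of the 27, H2-Q4 among them, against 6.61% of all genes. Both motifs shared a window in 10 genes of the whole table. The H2-Q4 stretch holds no exact kappa B match, which says only that these letters are not in its window. At the same place it reads gggatttccc, the kappa B letters with an added t. Near matches were not searched, so a kappa B element of other letters may be present.

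Signals are intensities in arbitrary units, which the authors had scaled so that every array had nearly the same trimmed mean. The arrays' median signals lay between 49.6 (wild type replicate 1) and 73 (Terc knockout replicate 2). The median difference of all probe sets from wild type was 0.107 (log2) for the arrays labelled Terc knockout, 0.095 for Ku86 knockout and 0.075 for double knockout. Median centring moved these to -0.226, -0.138 and -0.191, so a small difference from wild type has no settled sign. Xrcc5 went against its labels: it read 259 to 459 on the 4 arrays labelled Ku86-deficient and 11.1 to 75.6 on the others, so each direction below belongs to labels and not to a checked genotype. A second Xrcc5 probe set read 3.4 or less on every array and shows no difference to judge the labels by. Terc had no probe set. Summed markers of macrophages and other antigen presenting cells read 2610 to 3440 in wild type, 2660 to 3380 in Terc knockout, 2900 to 3740 in Ku86 knockout and 2640 to 3020 in double knockout. T, B and NK cell markers summed to 762 to 1210 over all arrays, with Cd8a and Ncr1 at or under the floor on every one. The sums took in all 23 and 30 probe sets of these lists. Most were too weak to be tested, so the sums may be largely background. Of the 9 and 7 probe sets tested in these lists, limma called 0 in each comparison, and fewer cells of a type cannot be told apart from less RNA per cell.

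Many members gave little signal. After a floor at a signal of 11.8, the 20th percentile, 31 of the 56 reached a mean at or above 38.1, the 40th percentile, and were tested; 58.6% of all non-control probe sets did. By role this kept 19 of 34 class I heavy chain, 5 of 13 class II, 5 of 7 loading gene and both H2-Ke6 probe sets. The class II chain genes H2-Aa, H2-Ea and H2-Eb2, the class II gene H2-Ob and the transporter gene Tap2 were among those left out. Signals of the 25 left out ran from 2.1 to 107.8; 3 of them stayed at or under the floor on all 8 arrays, and 9 exceeded 38.1 on at least 1 array. H2-Ab1, a class II beta chain, was left out and was chosen for mention after its values were seen. It read 73.2 and 55.6 in wild type, 16 and 34.2 in Terc knockout, 80.2 and 21 in Ku86 knockout, and 34.3 and 24 in double knockout. Its arrays labelled Terc knockout and double knockout were all below both wild type arrays, and the Ku86 knockout arrays lay on either side. Of all probe sets tested, 12.2% were lower than wild type without overlap in Terc knockout and 13.2% in double knockout. H2-Aa, also left out, overlapped wild type (12.6 and 18.2) in Terc knockout (12.1 and 15.8) and double knockout (12 and 18.7). H2-Pa, a further class II member left out, was above wild type in both. The 15 tested probe sets outside the naming rule had signals from 12.5 to 279. Among them, H2-Q10, an H2-M10.1 probe set and further H2-K1 probe sets are given below.

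**Figure D1:**
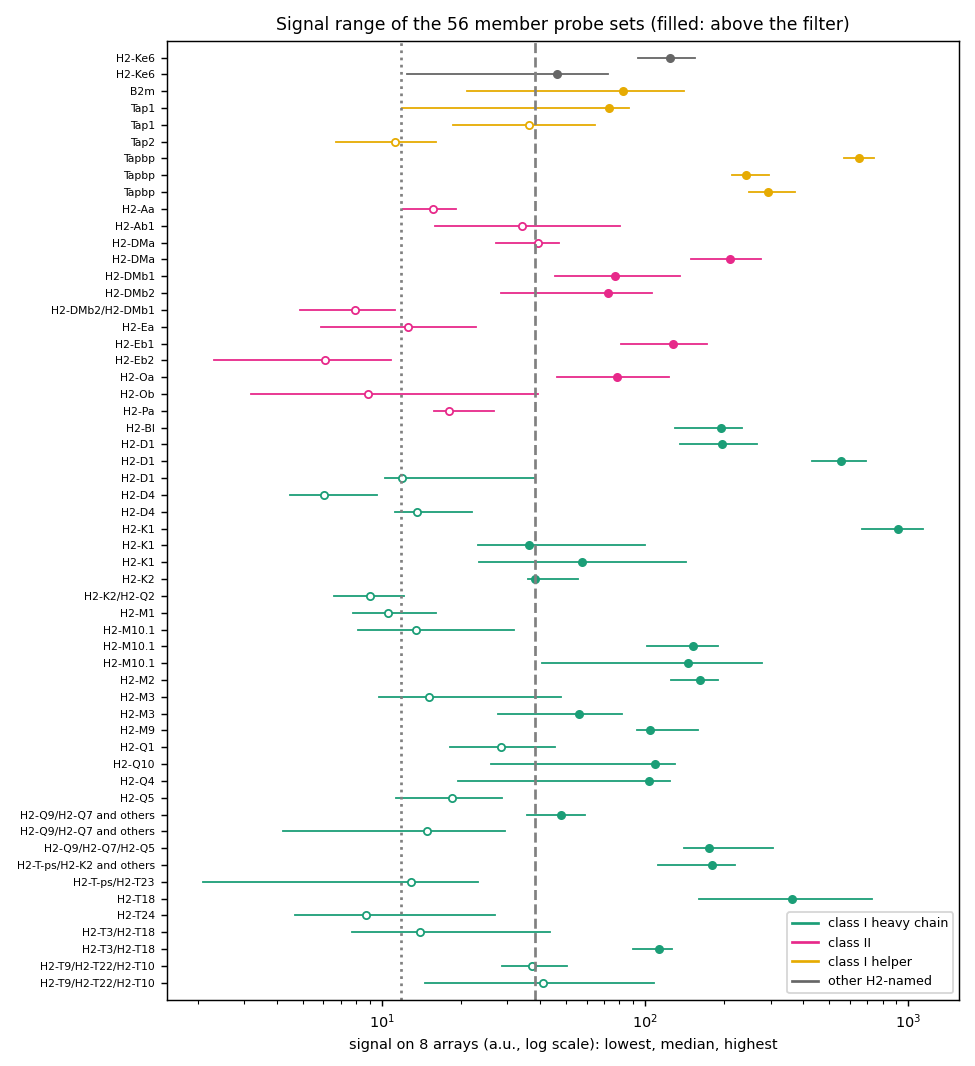
Signal of each of the 56 probe sets on a log axis in arbitrary units, as the lowest, median and highest of the 8 arrays, grouped by role and ordered by symbol; filled symbols mark the 31 tested, and the lines mark the floor (11.8) and the filter (38.1). Members of both class I and class II lie at or near the floor; signals can be compared along a line but not between lines.

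H2-Q4 is a non-classical class I heavy chain of the Q region. Its probe set lists this gene alone but carries the f mark, so its signal may belong to other family members too. It read 104 and 124 on the wild type arrays, 67.4 and 19.5 on those labelled Terc knockout, 118 and 104 on those labelled Ku86 knockout, and 122 and 80.7 on those labelled double knockout. Both Terc knockout arrays were below the other 6, and they differed from each other more than any other pair did. Genotype means were 114 ± 14.5 in wild type, 111 ± 9.48 in Ku86 knockout, 102 ± 29.5 in double knockout and 43.4 ± 33.9 in Terc knockout (SD, n = 2 each); the first 3 differed by less than their spread. Relative to wild type, the log2 difference was -1.65 for Terc knockout, which chose the gene, beside -0.04 for Ku86 knockout and -0.19 for double knockout; the 3 share the wild type arrays. The size rested on Terc knockout replicate 2: the difference was -0.75 without it and -2.54 without Terc knockout replicate 1.

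The effect of Terc loss could be tested for H2-Q4 between the other 4 arrays, where Ku86 is also labelled as lost. There the log2 difference of double knockout from Ku86 knockout was -0.16 ± 0.513 (SE; limma, adjusted p = 1), and the arrays overlapped. The error came from all 8 arrays, the Terc knockout pair among them; with only the 4 arrays compared in the fit it was 0.321 (limma, adjusted p = 0.996). A second probe set listing H2-Q4 together with H2-Q9, H2-Q7, H2-Q1 and H2-D1 was below the filter. It read 6.5 and 6.4 in wild type, 26.4 and 29.3 in Terc knockout, 4.2 and 14.2 in Ku86 knockout, and 15.6 and 27.7 in double knockout. Its wild type arrays were under the floor, and its Terc knockout arrays were above them. That is the other way round from the probe set with the f mark that lists H2-Q4 alone.

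The classical class I heavy chains H2-K1 and H2-D1 present most peptides to CD8 T cells. The H2-K1 probe set with the f mark and larger signal read 1142 and 959 in wild type, 669 and 774 in Terc knockout, 801 and 1111 in Ku86 knockout, and 868 and 1016 in double knockout. Its Terc knockout arrays were the lowest 2 of the 8, and the other genotypes overlapped. Its log2 differences from wild type were -0.54 for Terc knockout, -0.15 for Ku86 knockout and -0.16 for double knockout. Double knockout minus Terc knockout was 0.38 ± 0.219 (SE; limma, adjusted p = 0.99), with no overlap between those arrays. Another H2-K1 probe set, also f-marked, read 73 and 34.4, 23.3 and 38.3, 34.2 and 43.3, and 30.5 and 100 in that order. An H2-K1 probe set without the mark read 77.8 and 56.9, 23.5 and 144, 85.6 and 42.8, and 26.8 and 58.1. Its Terc knockout arrays were the lowest and the highest of the 8. In both, Terc knockout overlapped wild type, and double knockout minus Terc knockout was 0.89 and -0.56. H2-D1 read 691 and 476 in wild type, 431 and 553 in Terc knockout, 466 and 561 in Ku86 knockout, and 577 and 569 in double knockout. A second H2-D1 probe set read 199 and 192, 135 and 266, 238 and 164, and 234 and 189 in the same order. In both H2-D1 probe sets every genotype overlapped wild type. All 5 tested classical probe sets were below wild type in Terc knockout, where 61.1% of all probe sets were above it, with differences from -0.75 to -0.04 and a median of -0.23, and 1 of the 5 did so without overlap. This is the contrast that drew attention, so nothing is read from the count.

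**Figure D2:**
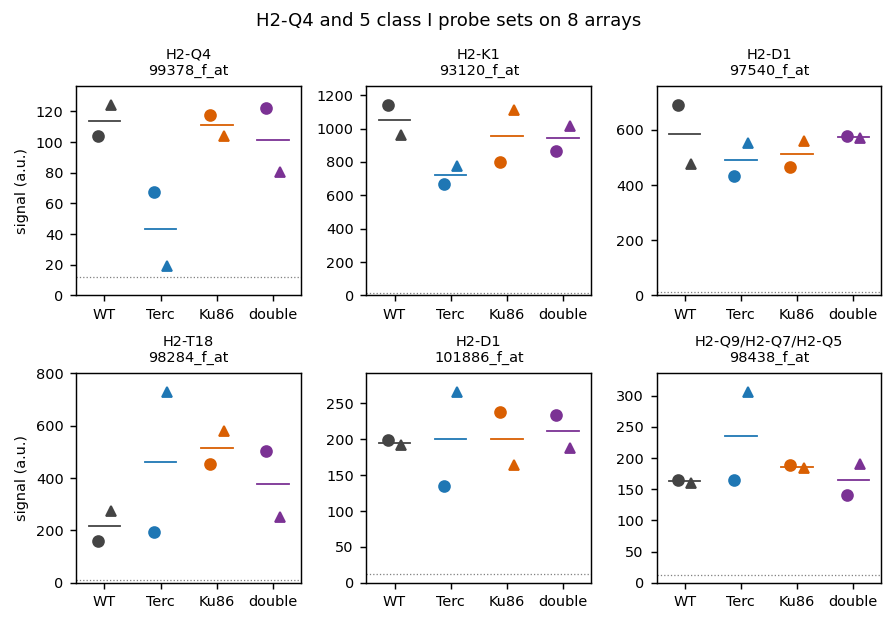
Signal in arbitrary units, from 0, of H2-Q4 and the 5 class I probe sets with the largest mean signal, by genotype label; circles are replicate 1, triangles replicate 2, the bar their mean and the dotted line the floor. In the panels of H2-Q4 and H2-K1 the Terc knockout arrays are lowest (67.4 and 19.5 for H2-Q4). In the other 4 panels no genotype lies wholly below wild type. The other tested probe sets listing H2-K1 alone, not shown, overlap wild type in Terc knockout.

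Among the other non-classical heavy chains, H2-T18, related to the thymus leukaemia antigen, varied widely between replicates. Its probe set carries the f mark and read 161 and 274 in wild type, 194 and 729 in Terc knockout, 452 and 579 in Ku86 knockout, and 503 and 251 in double knockout. The Ku86 knockout arrays were both above wild type, whereas the pairs of Terc knockout and of double knockout straddled a wide gap. Ku86 knockout minus wild type was 1.29 ± 0.523 (log2, SE; limma, adjusted p = 0.802), which did not pass. The other probe set tested for this gene, listing H2-T3 and H2-T18, ran from 89.8 to 127 over all 8 arrays.

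Qa-2 molecules are encoded by H2-Q7 and H2-Q9. The probe set listing H2-Q9, H2-Q7 and H2-Q5 read 165 and 160 in wild type, 165 and 306 in Terc knockout, 188 and 184 in Ku86 knockout, and 140 and 190 in double knockout. Only Terc knockout replicate 2 stood apart from the other 7 arrays. H2-Q10, a class I chain secreted by the liver, was chosen for mention after its values were seen. It read 26.1 and 92.8 in wild type, 120 and 131 in Terc knockout, 127 and 99 in Ku86 knockout, and 90.4 and 118 in double knockout. Its low point was wild type replicate 1. Ku86 knockout minus wild type was 1.19 ± 0.501 (log2, SE; limma, adjusted p = 0.802), and 0.27 without that array. H2-M10.1, best known from the vomeronasal organ and also chosen after its values were seen, had the lowest member difference of Terc knockout from wild type, -1.84, with 279 and 154 in wild type and 59.1 and 56.7 in Terc knockout. The probe set with this difference carries the g mark. A second H2-M10.1 probe set differed in the same contrast by 0.04, with overlap. Another, below the filter, went the other way, with 8.1 and 13.5 in wild type and 31.8 and 15.3 in Terc knockout.

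The loading gene Tap1 had the highest member difference in each comparison of a knockout with wild type. Tap1, one chain of the peptide transporter, read 46.8 and 11.9 in wild type, 76.1 and 73 in Terc knockout, 86.8 and 72.6 in Ku86 knockout, and 54.4 and 87.1 in double knockout. All 6 knockout arrays were above both wild type arrays, and wild type replicate 2 was the lowest by far. Ku86 knockout minus wild type was 1.75 ± 0.597 (log2, SE; limma, adjusted p = 0.802). Double knockout minus wild type was 1.54 ± 0.597 (SE; limma, adjusted p = 0.497). Neither passed, and without wild type replicate 2 they were 0.76 and 0.56. Without wild type replicate 1 they were 2.74 and 2.53. Wild type replicate 2 lay at the floor, and a floor raised to the 40th percentile gave 0.91 and 0.70. A second Tap1 probe set, below the filter, read 22.3 and 18.6 in wild type, 50.2 and 62.9 in Terc knockout, 20.1 and 64.6 in Ku86 knockout, and 20.5 and 64.1 in double knockout. There replicate 1 of each Ku86-deficient label lay within the wild type range and replicate 2 far above it, and the Terc knockout pair was clear of wild type. Tap2, its partner, stayed between 6.7 and 16.1 and was not tested.

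B2m, the light chain of every class I molecule, read 75.5 and 49.6 in wild type, 93.7 and 94.2 in Terc knockout, 38.6 and 89.3 in Ku86 knockout, and 141 and 21 in double knockout. The double knockout pair spanned the highest and lowest of all 8 arrays, and no tested difference passed. Tapbp had 3 probe sets, all tested. The first read 580 and 663 in wild type, 688 and 569 in Terc knockout, 620 and 741 in Ku86 knockout, and 634 and 691 in double knockout. Its second read 243 and 234, 214 and 239, 280 and 295, and 249 and 223 in that order. The remaining one read 292 and 296, 249 and 340, 297 and 269, and 249 and 371. In the second, Ku86 knockout arrays were the highest, by 0.27 ± 0.232 over wild type (log2, SE; limma, adjusted p = 0.827), and the other 2 probe sets overlapped there.

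**Figure D3:**
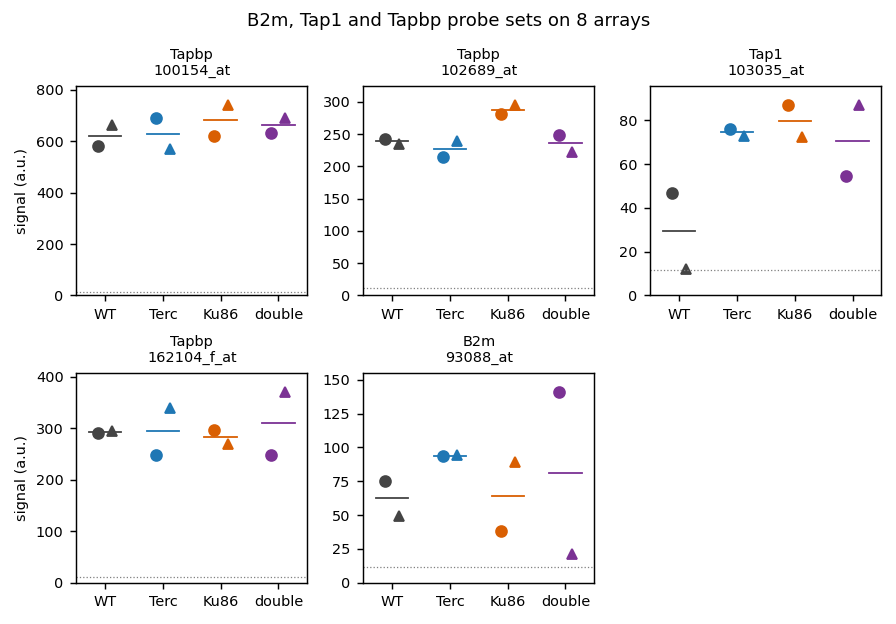
Signal in arbitrary units, from 0, of the 5 tested probe sets of B2m, Tap1 and Tapbp by genotype label; circles are replicate 1, triangles replicate 2, the bar their mean and the dotted line the floor. Tap1 is at 46.8 or less on both wild type arrays and at 54.4 or more on the other 6, while Tapbp overlaps between most genotypes.

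Class II genes were read for the few probe sets above the filter. H2-DMa, the alpha chain of the peptide editor H2-DM, read 225 and 176 in wild type, 150 and 156 in Terc knockout, 236 and 277 in Ku86 knockout, and 194 and 230 in double knockout. The Terc knockout arrays were the lowest 2 and the Ku86 knockout arrays the highest 2. A second H2-DMa probe set, just under the filter, read 27.2 and 35.6 in wild type, 38.9 and 42.2 in Terc knockout, 47.1 and 42.6 in Ku86 knockout, and 31 and 39.5 in double knockout. In it the Terc knockout arrays were above wild type, the other way round from the first, and the Ku86 knockout arrays were again the highest. Over 4 arrays against 4, those labelled Ku86-deficient averaged 234 ± 33.7 and the others 177 ± 34.3 (SD, n = 4 each), with overlap, a log2 difference of 0.41 ± 0.182 (SE; limma, adjusted p = 0.91).

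H2-DMb1 encodes the beta chain of the same editor. It read 123 and 136 in wild type, 46 and 62 in Terc knockout, 92.7 and 45.5 in Ku86 knockout, and 91.6 and 61 in double knockout. Both wild type arrays were above the other 6. The probe sets of H2-DMb1 and H2-DMb2 carry the g and i marks, so their signals may belong to more than the genes named. Ku86 knockout minus wild type was -0.99 ± 0.43 (log2, SE; limma, adjusted p = 0.802), and -0.48 without Ku86 knockout replicate 2. The difference of double knockout from wild type was -0.79. Its interaction, the effect of both losses beyond the sum of each, was 1.48 ± 0.608 (SE; limma, adjusted p = 0.875), and 0.96 without Ku86 knockout replicate 2. H2-DMb2, a close copy, read 90.9 and 106 in wild type, 73.4 and 28.5 in Terc knockout, 71.5 and 99.5 in Ku86 knockout, and 57.3 and 53.4 in double knockout. Its wild type arrays were above those of Terc knockout and double knockout and overlapped those of Ku86 knockout. A probe set listing both H2-DMb2 and H2-DMb1 read 4.9 to 11.2, under the floor on all 8 arrays. H2-Oa, of the editor's inhibitor H2-O, read 46.4 and 76.5, 80.4 and 124, 75 and 84.5, and 76.6 and 80.1 in the same order. H2-Eb1, a class II beta chain, read 145 and 92.9, 80.9 and 172, 134 and 161, and 123 and 93.7. Neither had a difference that passed in any tested comparison.

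**Figure D4:**
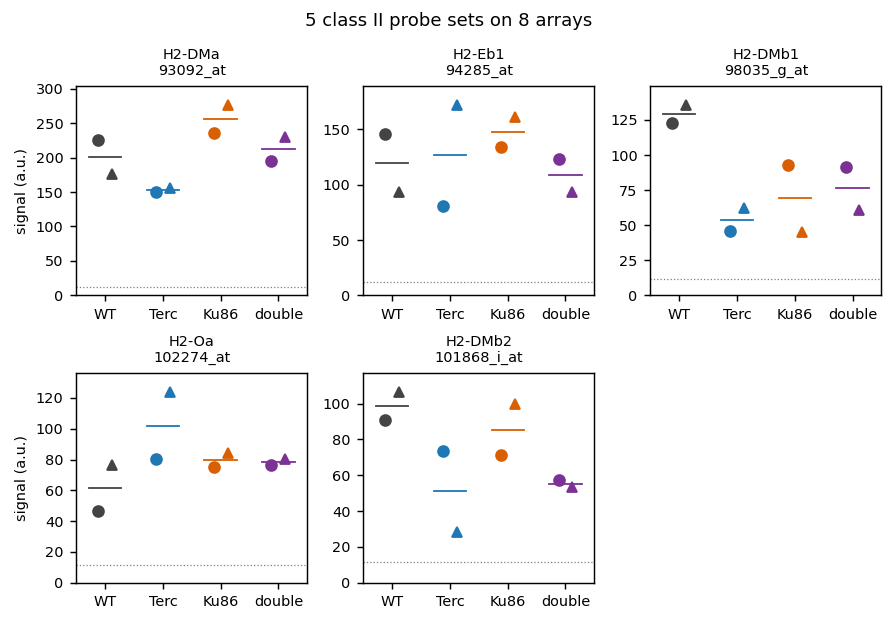
Signal in arbitrary units, from 0, of the 5 tested class II probe sets by genotype label; circles are replicate 1, triangles replicate 2, the bar their mean and the dotted line the floor. Both wild type arrays of H2-DMb1 (123 and 136) lie above the other 6, and H2-DMa has its highest arrays in Ku86 knockout.

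Taking the 31 members above the filter, limma called 0 in each of the 6 comparisons that could be tested. For Ku86 knockout against wild type, where 0.0412% of all probe sets were called, 4 members had an unadjusted p under 0.05 (H2-T18, H2-Q10 and Tap1 higher, H2-DMb1 lower), and 5.9% of all probe sets did. Arrays did not overlap for 9 members that were higher and 2 that were lower, beside 24.4% and 13.7% of all probe sets. For double knockout against wild type, 0.0275% of all probe sets were called; 1 member, Tap1, had an unadjusted p under 0.05, beside 8.6% of all. There 3 members were higher and 2 lower without overlap, beside 23.2% and 13.2%. Differences of the members had a median of 0.019 in the first comparison and 0.007 in the second, beside 0.095 and 0.075 for all probe sets; quantile normalization turned the member medians to -0.071 and -0.079. H2-Q4 was left out of these tests but not of the medians. Tap1 stays in both counts, although nothing is read from its tests, for the reason given above.

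Double knockout against Ku86 knockout asks for the effect of Terc loss in arrays that share the Ku86 label. Limma called 0 of 31 members and 0% of all probe sets, and 0 members had an unadjusted p under 0.05, beside 3.36%. Of the 31, 22 were below 0 and 9 above, while 48.6% of all probe sets were above 0; the member median was -0.149 beside -0.01. Without overlap 7 were lower and 2 higher, beside 16.6% and 15.5% of all. The differences ran from -0.75 to 0.52. Double knockout against Terc knockout gave 0 calls among 30 tested members and among 0% of all probe sets, with 0 members at an unadjusted p under 0.05, beside 4.26%. Of these 30, 4 were higher and 4 lower without overlap, beside 15.4% and 17%. H2-Q4, not among the 30, was also higher without overlap, on the side that the choice of the gene fixes.

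For Ku86 loss over 4 arrays against 4, again 0 of 30 were called and 0% of all; 1 member, H2-DMa, had an unadjusted p under 0.05, beside 5.15%. No member separated the 4 arrays from the other 4, beside 1.68% of all probe sets higher and 1.46% lower. The interaction gave 0 calls of 30 and 0% of all, and 2 members at an unadjusted p under 0.05, H2-DMb1 above 0 and Tap1 below (-1.86 ± 0.844, SE; limma, adjusted p = 0.875), beside 5.04%. The Tap1 interaction was -0.88 without wild type replicate 2 and -2.85 without wild type replicate 1, and a floor raised to the 40th percentile gave -1.03. Since Tap1 passed the filter through the knockout arrays, nothing is read from its interaction test either. For Terc knockout against wild type, the contrast that chose H2-Q4, differences ran from -1.84 to 1.66 with a median of 0.014, beside 0.107 for all. There 6 members were higher and 7 lower without overlap, beside 25.5% and 12.2% of all probe sets, and 0.0275% of all were called.

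**Figure D5:**
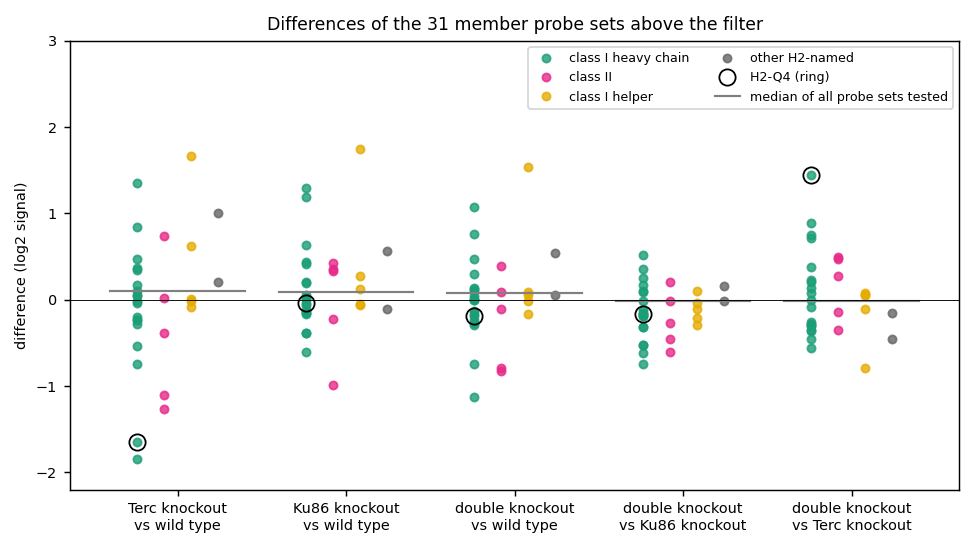
Log2 differences of the 31 tested members in 5 comparisons, 1 point per probe set, coloured by role; the ring marks H2-Q4 and grey bars the median of all 7282 probe sets tested. Class I heavy chains, class II genes and loading genes have points on both sides of 0 in each comparison, and H2-Q4 lies low only in Terc knockout against wild type (-1.65).

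Other genes of antigen presentation, a list of 37 with probe sets for 29, had 20 probe sets tested. Limma called 0 in each comparison. In double knockout against wild type 4 had an unadjusted p under 0.05, all higher, beside 6.34% of all probe sets; 19 of 20 were above 0, beside 58.7%, and the median was 0.441 beside 0.075 for all probe sets. The summed list ran from 4130 to 4900 in wild type and from 6030 to 6380 in double knockout. It ran from 4730 to 5390 in Terc knockout and from 4890 to 5950 in Ku86 knockout. Ctsl, a lysosomal protease that trims the invariant chain in thymic epithelium, read 184 and 200 in wild type, 412 and 191 in Terc knockout, 195 and 485 in Ku86 knockout, and 779 and 602 in double knockout. Its double knockout arrays were the highest 2, by 1.84 ± 0.422 over wild type (log2, SE; limma, adjusted p = 0.257). Ctsb, another lysosomal protease, read 79.7 and 148 in Ku86 knockout and 211 and 266 in double knockout (1.12 ± 0.342, SE; limma, adjusted p = 1). Hspa5, a chaperone of the endoplasmic reticulum, was higher on all 4 arrays labelled Ku86-deficient, 1529 to 1991 against 1051 to 1397 (0.46 ± 0.147, SE; limma, adjusted p = 0.9). Sums of Sertoli cell markers were also higher, 2930 to 3040 in wild type and 5150 to 6060 in double knockout. Peritubular and vascular markers ran from 1790 to 1930 and from 3130 to 3470. Leydig cell markers ran from 849 to 1120 and from 1170 to 1930. The single knockouts were also above wild type in the first 2 of these lists. Sertoli sums were 4000 to 4260 in Terc knockout and 3210 to 4600 in Ku86 knockout, and peritubular sums 2600 to 2780 and 2260 to 2850. Leydig sums were 1090 to 1660 and 863 to 1220, which overlapped wild type. Spermatogonia markers summed to 1700 to 2690 in wild type and 2810 to 3180 in double knockout, and the single knockouts overlapped wild type. Spermatocyte markers ran from 18400 to 20600 in wild type and from 18200 to 18700 in double knockout. Spermatid markers ran from 50300 to 59600 and from 49100 to 57100, so both of these lists overlapped. The part of these cell types in the result was not tested.

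The list of interferon signalling and response genes, a pathway known to raise class I genes, had probe sets for 27 of 31 genes and 8 tested, with 0 called in each comparison. Cxcl9, Gbp2, Ifi47, Ifit1, Ifit2 and Usp18, targets of interferon, were at or under the floor on all 8 arrays. Jak1, a kinase of interferon receptors, read 20.7 and 30.3 in wild type, 26.6 and 11.9 in Terc knockout, 65 and 92.3 in Ku86 knockout, and 119 and 96.6 in double knockout. The 4 arrays labelled Ku86-deficient were all above the others, by 2.11 ± 0.395 (log2, SE; limma, adjusted p = 0.342), which did not pass. In that comparison 0 probe sets of the whole array were called. The wild type and Terc knockout arrays were all under the filter level of 38.1, and 1 of them lay near the floor. Jak1 thus passed the filter only through the arrays where it was high, so nothing is read from its test.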

How the data were processed

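The authors deposited 1 intensity per probe set and array, unlogged and already brought to a common scale (the mean without the top and bottom 2% was 200.1 to 200.2 on each array), with software not given in the sources used here. Gene names came from GEO's platform annotation. Values under the pooled 20th percentile (11.8) were raised to that floor before log2. The 66 controls and 5140 probe sets whose mean log2 value lay under the 40th percentile (38.1) were left out; that form of the mean was chosen to match earlier processing, with the linear mean as an alternative. Limma 3.58.1 in R 4.3.3 fitted 1 mean per genotype to all 8 arrays (lmFit, eBayes with trend), two-sided, with Benjamini-Hochberg adjustment over 7282 probe sets and calls at an adjusted p under 0.05. The pipeline was tested on simulated data.

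Members and lists were chosen with earlier results of these data known. Values on every array are given for H2-Q4, tested loading gene probe sets, any H2 probe set called or at p under 0.01 without overlap (0 were), and the 5 class I and 5 class II probe sets with the largest mean signal. Other genes of the lists are named at p under 0.01. H2-Q4 was tested only in the difference between double knockout and Ku86 knockout, although the error of that fit came from all 8 arrays. The labels do not say that replicates came from separate animals, so p-values measure the spread between these samples, which may be technical, and 2 arrays per genotype limit the precision. Scan day 1 held replicate 1 of double knockout and of Ku86 knockout, day 3 held wild type replicate 1, and day 2 the other 5 arrays; chip lot and day cannot be told apart. Alternatives changed scaling, floor, filter, variance trend, arrays in the fit, replicate or scan day blocks and the threshold, and left out each array in turn.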

Additional observations from a re-analysis of the deposited data

Results flagged for a closer look

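H2-Q10, a secreted class I heavy chain, stood out because the arrays of its groups were ordered oppositely in the presence and absence of Terc. Both arrays labelled Ku86 knockout (127 and 99) were above both wild type arrays (26.1 and 92.8), a log2 difference of 1.19, whereas both arrays labelled double knockout (90.4 and 118) were below both Terc knockout arrays (120 and 131), a difference of -0.28. The test of the difference between these effects, the interaction term, gave -1.46 ± 0.708 (SE; limma, adjusted p = 0.875), so it did not pass. The probe set carries the array maker's mark for shared probes. Xrcc5 went against the Ku86 labels, so the direction belongs to the labels.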

How the results depend on the processing

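The count of members called by limma was 0 in all 6 tested comparisons under each of 21 alternatives, with a lowest adjusted p of 0.137 (double knockout against wild type, scan day 2 alone). In H2-Q4, Terc knockout minus wild type ran from -2.54 to -0.75 when each array was left out in turn, against -1.65 with all. Its double knockout minus Ku86 knockout, -0.16 with all arrays, ran from -0.46 without double knockout replicate 1 to 0.14 without double knockout replicate 2 (limma, adjusted p = 0.998; 0.993 to 1 over its alternatives). The labels number the replicates as experiments 1 and 2. Correlations of deviations between same-numbered arrays ran from 0.013 to 0.254, all above 0 but not all over 0.1, so the numbers were not taken to pair the samples; with the replicate block 0 members were called in each comparison. Added after the data had been seen, the fit to scan day 2 alone gave Ku86 knockout minus wild type as 2.61 for Tap1, 0.09 for H2-Q10, 1.08 for H2-T18 and -1.58 for H2-DMb1, and the linear filter gave 0 calls. H2-T18 in that comparison ran from 0.9 to 1.67, H2-DMb1 from -1.5 to -0.48 and H2-Q10 from 0.27 to 2.1 when each array was left out. In these fits, and on scan day 2, a genotype with 1 array is assumed to vary like the others; on day 2 only Terc knockout has 2 arrays, so every other difference there, the adjusted p of 0.137 included, sets 1 array against 1 or 2 with a spread from that pair alone. Signals near the floor and 2 arrays per genotype limit what could be seen.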
